A study of Sus scrofa with 120 samples.

Results

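Gene expression was compared directly between 4 RNA-seq libraries of compressed chondrocyte constructs and 4 libraries of constructs treated with Yoda1, all non-transfected and harvested 3 h after the onset of stimulation. These are 8 of the 120 libraries of the series, chosen by their titles alone and not by any measured value. The cells were wild-type primary chondrocytes of pig femoral cartilage, cast in 2% agarose as tissue-engineered cartilage. Every library compared here, vehicle included, came from such constructs in serum-containing culture medium. The compression group was deformed once, slowly and unconfined, to 80% deformation at 1.9% deformation per minute, a range the labels call supraphysiologic. The Yoda1 group received Yoda1, at 5 uM by the series description, while the sample protocol writes the same number with mM. The 4 vehicle libraries that stand beside them came from free-swelling constructs in medium with DMSO. Titles call these cells non-transduced and the protocol calls them non-transfected (NT). The same compression and Yoda1 groups also exist after a non-targeting siRNA (siNTC), after siRNA against PIEZO1 (siPIEZO1), and in NT cells at 9 h. The labels number the samples of a group without naming an animal or culture for each. Every p-value is therefore set against the spread among the numbered samples alone, and that spread may be technical.

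PIEZO1 is a mechanically gated cation channel of the plasma membrane that lets calcium into the cell when the membrane is stretched, and Yoda1 is a small molecule that opens the channel without mechanical force. Chondrocytes carry PIEZO1, PIEZO2 and TRPV4, and strong compression of cartilage also deforms the matrix, the cytoskeleton and the nucleus. Calcium entry reaches transcription mainly through calcineurin and NFAT, through CREB and through the ERK cascade, whose immediate early genes appear within the first hours.

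The 8 libraries held 43093940 to 50812027 counts under compression and 49270919 to 55343569 with Yoda1, and the vehicle libraries 43010839 to 52442405. All 13 chondrocyte markers were detected, and their summed level was 24050 to 34860 CPM under compression, 36250 to 44150 CPM with Yoda1 and 33280 to 36850 CPM in vehicle. All 13 fibroblast and dedifferentiation markers were detected too. Their summed level was 3085 to 3817 CPM under compression, 3665 to 4774 CPM with Yoda1 and 3441 to 3479 CPM in vehicle. Detection of markers alone therefore does not identify the cells. CPM are counts scaled to a common library total (counts per 1e6, adjusted by edgeR's trimmed mean of M-values, TMM) and not by gene length. The leukocyte markers CD3E, PTPRC and MS4A1 stayed under 1 CPM in every library of these 3 groups and LYZ was at 0 in all 12. The summed level of all 13 leukocyte markers was 8.18 to 15.6 CPM under compression, 16.6 to 41.9 CPM with Yoda1 and 10.6 to 27.8 CPM in vehicle, most of it CD14. In these bulk samples, fewer cells of a type and less RNA per cell cannot be told apart. On the first 2 principal components of the 8 libraries, which carried 19.8% and 17% of the variance, Yoda1 replicate 4 lay apart from the other Yoda1 libraries (second component 60.8, against -53.1 to -25.4). Compression replicate 4 was the lowest of its group for 29.4% of all genes tested. The share was 70.4% of the 466 genes called lower and 36.5% of the 326 genes called higher. Among genes called at least 2-fold, it was 59.8% of the 102 lower and 72.1% of the 43 higher.

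Between compression and Yoda1, 792 of 18330 genes tested passed (edgeR quasi-likelihood test, Benjamini-Hochberg adjusted p under 0.05), a background of 4.32%. Of these, 326 were higher under compression (1.78% of all tested) and 466 were lower (2.54%), and the median log2 fold change over all genes was -0.000543. These shares are the background for each list count below. The change reached 2-fold for 43 higher and 102 lower genes. When each of the 8 libraries was left out in turn, the count lay between 295 without compression replicate 4 and 616 without compression replicate 3; it was 452 and 475 without compression replicates 1 and 2 and 442, 476 and 468 without Yoda1 replicates 1, 3 and 4. Under all 8 such fits, 203 genes were called in the same direction, 107 higher and 96 lower. Against vehicle, compression changed 1149 genes (766 higher, 4.18%, and 383 lower, 2.09%, together 6.27%) and Yoda1 changed 75 (62 higher, 0.338%, and 13 lower, 0.0709%, together 0.409%). Single libraries decided much of the Yoda1 count, which was 394 without vehicle replicate 4, 13, 20 and 34 without vehicle replicates 1 to 3 and 24, 39 and 38 without Yoda1 replicates 1 to 3. The compression count was 720 without compression replicate 4 and 659, 526 and 728 without vehicle replicates 1 to 3. These comparisons share the vehicle libraries, and each shares a group with the direct one, so their values are only set side by side.

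Chemokines, the secreted attractants of white blood cells, were among the genes with the largest differences in favour of compression. AMCF-II ranked first of the 12 largest increases, followed by NR4A3 and TCIM. AMCF-II, a pig CXC chemokine that attracts neutrophils (chromosome 8 at 70008225 to 70010360 in Sscrofa11.1), had 55.2, 60.9, 19.2 and 11.04 CPM in compression libraries 1 to 4, against 3.06, 3.36, 3.81 and 6.91 CPM in Yoda1 libraries 1 to 4. Every compression library lay above every Yoda1 library, and compression libraries 1 and 2 were far above libraries 3 and 4. The log2 fold change was 3.09 ± 0.39 (SE, adjusted p = 1.9e-06). Vehicle libraries 1 to 4 held 5.33, 2.95, 2.57 and 3.50 CPM, and AMCF-II was 3.35 (adjusted p = 1.55e-07) on the log2 scale for compression against vehicle and 0.26 (adjusted p = 0.82) for Yoda1 against vehicle.

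CXCL8, the neutrophil attractant interleukin-8 (chromosome 8 at 69932646 to 69935861), had 37.4, 34.6, 13.8 and 9.89 CPM in compression libraries 1 to 4, against 3.24, 6.21, 9.55 and 4.58 CPM in Yoda1 libraries 1 to 4. Its compression and Yoda1 libraries came close to each other, at 9.89 and 9.55 CPM, without overlap, and the log2 fold change was 2.02 ± 0.37 (SE, adjusted p = 0.000888). CCL20, the ligand of the receptor CCR6, had 29.2, 31.6, 10.95 and 17.0 CPM in compression libraries 1 to 4, against 3.99, 5.57, 10.5 and 4.54 CPM in Yoda1 libraries 1 to 4, a difference of 1.85 ± 0.35 (SE, adjusted p = 0.00119). CCL2, which attracts monocytes, had 39.048, 37.7, 24.3 and 19.6 CPM in compression libraries 1 to 4, against 7.61, 5.60, 12.6 and 7.86 CPM in Yoda1 libraries 1 to 4. All 4 compression libraries of CCL2 lay above all Yoda1 libraries, and the log2 fold change was 1.84 ± 0.26 (SE, adjusted p = 1.73e-05). CXCL2, another neutrophil chemokine, had 46.5, 48.5, 12.2 and 6.05 CPM in compression libraries 1 to 4, against 5.88, 5.55, 8.65 and 8.22 CPM in Yoda1 libraries 1 to 4. Here the groups overlapped, because compression library 4 lay below 2 of the Yoda1 libraries, and the difference was 2.00 ± 0.38 (SE, adjusted p = 0.00135). For CXCL8, CCL20, CCL2 and CXCL2, compression libraries 1 and 2 were again the 2 highest. Against vehicle, the log2 fold changes of these 4 genes were 1.72 to 2.44 for compression, all called, and -0.12 to 0.44 for Yoda1, none called. CXC chemokines are close paralogs, and where reads could be shared their individual values are uncertain.

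PTGS2, the inducible cyclooxygenase that makes prostaglandin precursors (chromosome 9 at 127850164 to 127858866), had 487, 418, 277 and 206 CPM in compression libraries 1 to 4, against 109, 130.2, 114 and 119 CPM in Yoda1 libraries 1 to 4. The 2 groups were far apart, and the Yoda1 libraries themselves lay above the vehicle libraries, which held 50.4, 49.1, 55.5 and 71.9 CPM. The direct difference was 1.56 ± 0.18 (SE, adjusted p = 8.1e-07), and against vehicle PTGS2 rose under compression by 2.61 (adjusted p = 1.03e-11) and with Yoda1 by 1.06 (adjusted p = 0.00187). The gene model that the counts table names MMP3, a matrix metalloproteinase that cleaves proteoglycans, carries the symbol MMP1 in the gene name table, so the 2 enzymes cannot be told apart here. It had 644, 617, 438 and 308 CPM in compression libraries 1 to 4, against 239.7, 264, 366 and 227 CPM in Yoda1 libraries 1 to 4. Compression library 4 lay below Yoda1 library 3, and the other compression libraries lay above every Yoda1 library. The difference was 0.87 ± 0.15 (SE, adjusted p = 0.000629). ADAMTS1, a proteoglycan-cleaving protease, had 44.7, 40.3, 39.9 and 33.9 CPM in compression libraries 1 to 4, against 21.9, 24.7, 20.6 and 30.1 CPM in Yoda1 libraries 1 to 4, a difference of 0.71 ± 0.18 (SE, adjusted p = 0.018), while its vehicle libraries held 9.91, 10.3, 10.9 and 10.8 CPM. Compression libraries of ADAMTS1 were the highest, Yoda1 libraries lay between, and the 3 groups did not overlap. Without compression replicate 1 or without Yoda1 replicate 1 or 3 the call was lost (adjusted p up to 0.0668).

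Of 36 measured NF-kB and inflammatory genes, 9 were higher and 1 was lower under compression than with Yoda1, with a list median of 0.362 on the log2 scale. The 9 were CXCL8, CXCL2, CCL20, CCL2 and PTGS2 above and NOS2, NFKBIZ, TNFAIP3 and BIRC3, which are named to complete the count after their values were seen. NFKBIZ and TNFAIP3, inducible regulators of NF-kB signalling, were called in all 8 fits that left out 1 library. NFKBIZ averaged 13.2 ± 4.75 CPM under compression and 6.15 ± 0.893 CPM with Yoda1 (SD, n = 4 each), and TNFAIP3 averaged 49.4 ± 11.6 CPM under compression and 25.2 ± 1.37 CPM with Yoda1. NOS2, the inducible nitric oxide synthase, was called in 3 of these fits (adjusted p up to 0.119). In all 9 genes, compression libraries 1 and 2 were both above libraries 3 and 4, which was so for 16.2% of all genes tested. The gene called lower was SOCS3, the feedback inhibitor of cytokine receptors, with 3.44, 2.41, 2.1 and 1.94 CPM in compression libraries 1 to 4, against 6.24, 3.88, 5.03 and 4.20 CPM in Yoda1 libraries 1 to 4. Its groups did not overlap and the difference was -0.97 ± 0.21 (SE, adjusted p = 0.00576). The summed leukocyte marker level given above was lower in every compression library than in every Yoda1 library. NFKBIA, the inhibitor that NF-kB induces, did not pass at 0.64 ± 0.34 (SE, adjusted p = 0.323). Of 33 matrix-degrading enzymes and inhibitors, 2 were higher (ADAMTS1 and the MMP3 model) and 0 lower (median 0.0901). This share was near the 4.32% called over all genes tested. Of 31 interferon-stimulated genes 3 were higher and 1 lower (median 0.193). None of these 4 interferon-stimulated genes held in all 8 fits that left out 1 library (adjusted p up to 0.184). IFIT1 was called in none, IFIT5 only without Yoda1 replicate 2 and OAS1 only without compression replicate 1 or 4 or Yoda1 replicate 3 or 4, and IRF7 was lost without compression replicate 1 or 4 or Yoda1 replicate 1.

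**Figure D1:**
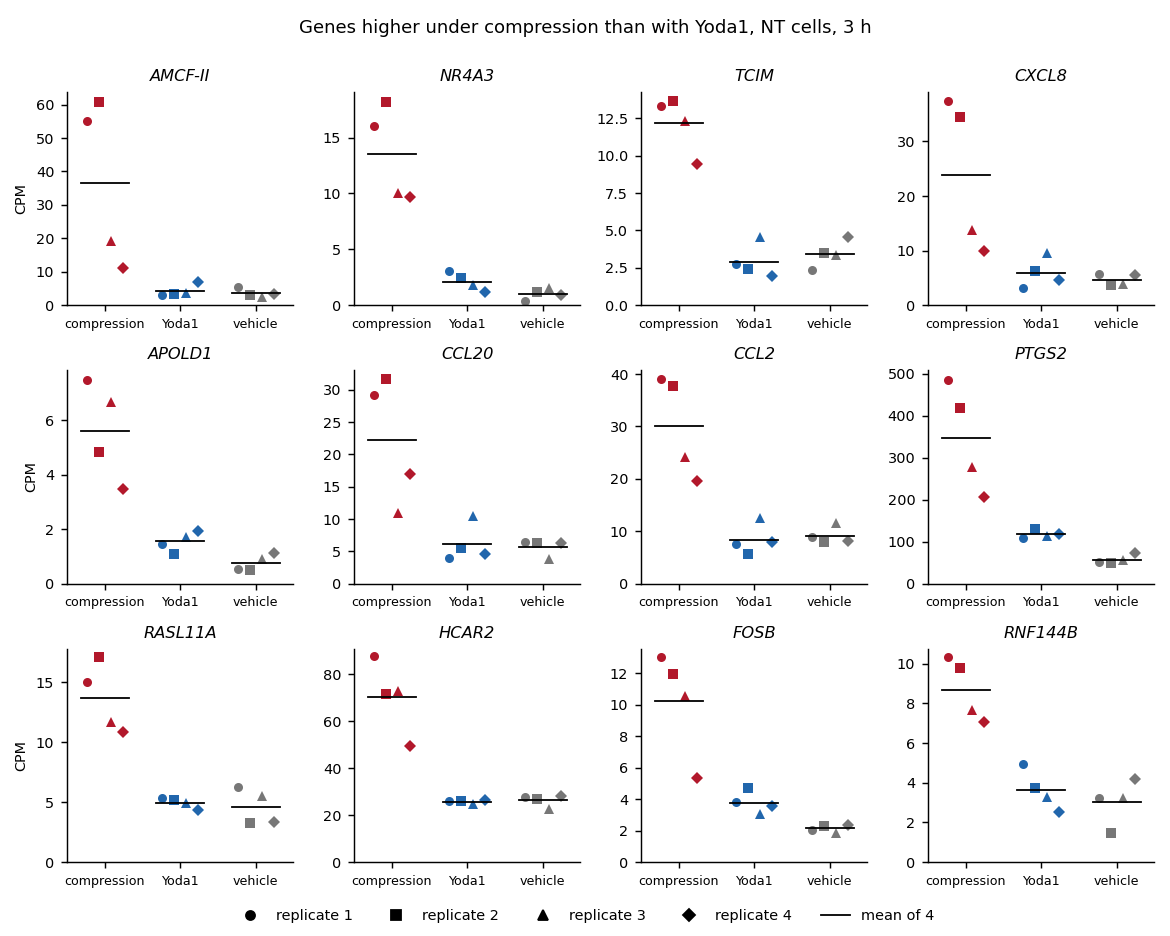
CPM (TMM-scaled counts, linear axis from 0) of the 12 genes with the largest positive difference between compression and Yoda1, in NT cells at 3 h; each point is 1 library, its shape the replicate number, and the bar the mean of 4. Compression libraries lay above all Yoda1 libraries in each panel, and for AMCF-II the compression libraries spread between 11.04 and 60.9 CPM.

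The other large increases included a metabolite receptor and signalling proteins. HCAR2, a receptor for hydroxybutyrate and niacin, had 87.7, 71.7, 72.8 and 49.7 CPM in compression libraries 1 to 4, against 26.1, 25.9, 24.7 and 26.2 CPM in Yoda1 libraries 1 to 4. Its Yoda1 libraries were nearly equal and every compression library lay above them, and the difference was 1.45 ± 0.16 (SE, adjusted p = 4.5e-07). TCIM, a small regulator of Wnt-dependent transcription, had 13.3, 13.7, 12.3 and 9.44 CPM in compression libraries 1 to 4, against 2.74, 2.43, 4.57 and 1.95 CPM in Yoda1 libraries 1 to 4, a difference of 2.06 ± 0.25 (SE, adjusted p = 1.28e-06) with no overlap. APOLD1, known as an early response gene of blood vessels, had 7.48, 4.83, 6.66 and 3.47 CPM in compression libraries 1 to 4, against 1.47, 1.10, 1.70 and 1.93 CPM in Yoda1 libraries 1 to 4. It rose against vehicle under compression (2.84, adjusted p = 1.78e-09), and the direct difference was 1.85 ± 0.25 (SE, adjusted p = 8.56e-06). RASL11A, a Ras-like small GTPase, differed by 1.46 ± 0.23 (SE, adjusted p = 0.000116) and RNF144B, a ubiquitin ligase, by 1.26 ± 0.25 (SE, adjusted p = 0.00167), each with all compression libraries above all Yoda1 libraries. All 12 of the largest increases remained called in each of the 8 fits that left out 1 library. In 10 of these 12, however, compression libraries 1 and 2 were both above libraries 3 and 4. This was so for 62.8% of the 43 genes called at least 2-fold higher and for 16.2% of all genes tested. Compression library 4 was the lowest of its group in 11 of the 12. The part of this library split in the increases was not tested.

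Immediate early genes, which are transcribed without new protein synthesis, split in direction. Of 26 measured, 4 were higher under compression (NR4A3, FOSB, NR4A2 and KLF4) and 4 were lower (ZFP36, EGR1, FOS and MYC), with a list median of 0.0804. NR4A3, an orphan nuclear receptor, had 16.1, 18.2, 10.1 and 9.70 CPM in compression libraries 1 to 4, against 3.06, 2.47, 1.79 and 1.18 CPM in Yoda1 libraries 1 to 4. All 4 compression libraries were above all Yoda1 libraries, at 2.67 ± 0.45 (SE, adjusted p = 0.000283). FOSB, an AP-1 subunit, had 13.0, 12.0, 10.6 and 5.32 CPM in compression libraries 1 to 4, against 3.81, 4.69, 3.03 and 3.55 CPM in Yoda1 libraries 1 to 4, a difference of 1.44 ± 0.24 (SE, adjusted p = 0.000211). The vehicle libraries of FOSB held 2.05, 2.31, 1.84 and 2.34 CPM, below every Yoda1 library. In siNTC cells at 3 h, 3 of the 26 immediate early genes were higher under compression than with Yoda1 and 12 were lower (median -0.567).

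NR4A2, the paralog of NR4A3, had 125, 146, 125 and 68.2 CPM in compression libraries 1 to 4, against 69.2, 66.8, 60.4 and 61.8 CPM in Yoda1 libraries 1 to 4. Compression library 4 lay within the Yoda1 range, and the other 3 were well above it. NR4A2 differed by 0.85 ± 0.20 (SE, adjusted p = 0.0113), a call that was lost without compression replicate 2 (adjusted p = 0.0626). NR4A2 rose against vehicle with both stimuli, by 2.55 (adjusted p = 1.12e-10) under compression and by 1.70 (adjusted p = 5.73e-06) with Yoda1. KLF4, a zinc-finger factor, was likewise higher than in vehicle with both stimuli (1.11, adjusted p = 1.96e-09 and 0.55, adjusted p = 0.00603) and higher under compression than with Yoda1 by 0.56 ± 0.10 (SE, adjusted p = 0.00122).

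EGR1, a zinc-finger factor induced by ERK signalling, had 56.9, 69.7, 70.4 and 59.2 CPM in compression libraries 1 to 4, against 155, 134, 110.0 and 120.3 CPM in Yoda1 libraries 1 to 4. Every Yoda1 library lay above every compression library, and the vehicle libraries held 49.9, 53.2, 57.7 and 94.8 CPM. EGR1 differed by -1.02 ± 0.19 (SE, adjusted p = 0.00109), while against vehicle EGR1 was 0.00 (adjusted p = 0.997) under compression and 1.02 (adjusted p = 0.0047) with Yoda1. FOS, the AP-1 partner of JUN proteins, had 235, 212, 248 and 171 CPM in compression libraries 1 to 4, against 357, 365, 331 and 345 CPM in Yoda1 libraries 1 to 4, a difference of -0.69 ± 0.13 (SE, adjusted p = 0.00117) without overlap. Against vehicle FOS passed in neither comparison, at -0.19 (adjusted p = 0.451) and 0.50 (adjusted p = 0.0688). MYC, a growth-promoting factor, differed by -0.68 ± 0.16 (SE, adjusted p = 0.00841), and this was lost without compression replicate 4 (adjusted p = 0.0607). ZFP36, an RNA-binding protein that destabilises cytokine mRNAs, had 5.83, 5.41, 8.81 and 5.53 CPM in compression libraries 1 to 4, against 15.2, 16.7, 15.0 and 20.6 CPM in Yoda1 libraries 1 to 4. Its compression libraries were the lowest of the 3 groups, with vehicle at 13.0, 17.4, 12.1 and 17.2 CPM, and the difference was -1.40 ± 0.17 (SE, adjusted p = 1.75e-06). ZFP36 fell against vehicle under compression (-1.22, adjusted p = 6.03e-06), with Yoda1 at 0.18 (adjusted p = 0.689).

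**Figure D2:**
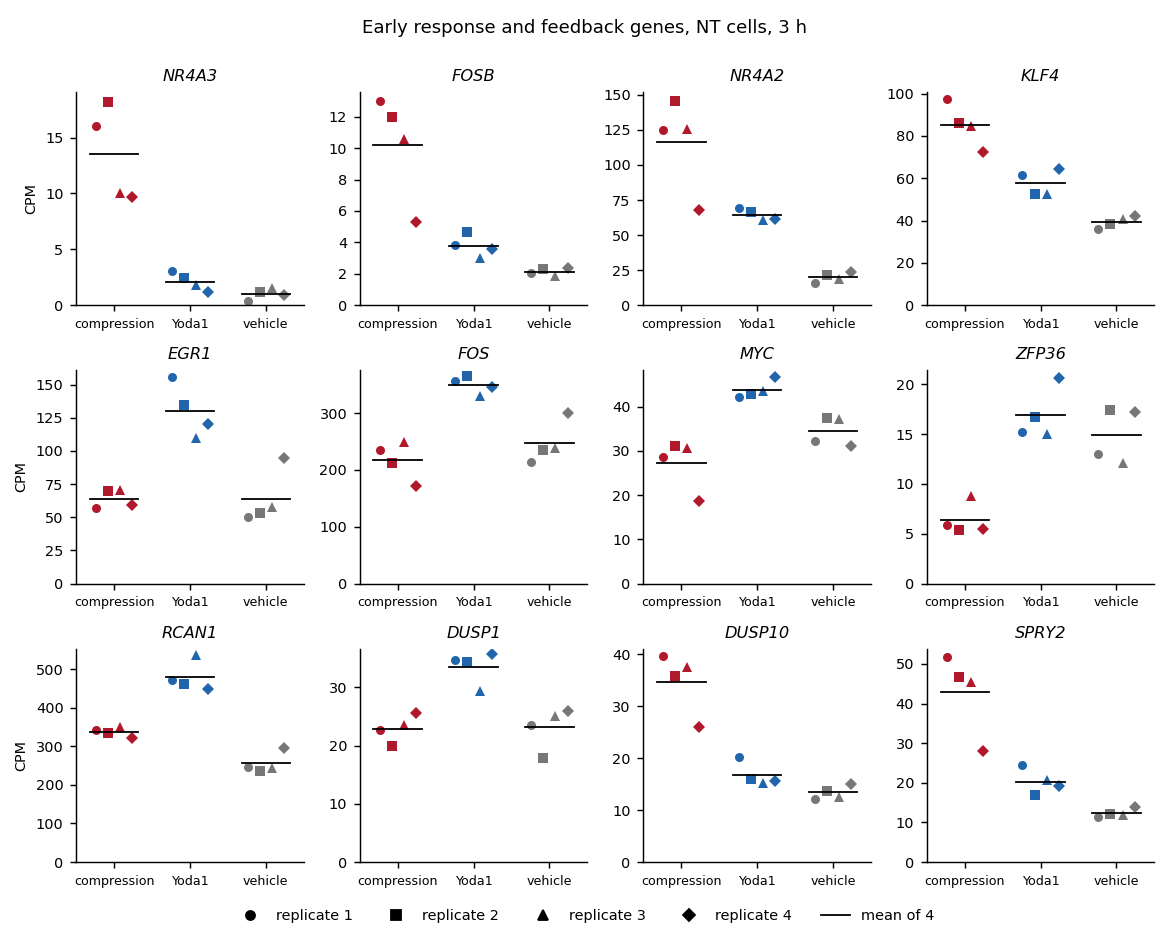
CPM (linear axis from 0) of 12 early response and feedback genes in compression, Yoda1 and vehicle libraries of NT cells at 3 h; points are libraries, shapes are replicate numbers and bars are means of 4. NR4A3, FOSB, DUSP10 and SPRY2 were highest under compression, and EGR1, FOS, RCAN1 and DUSP1 were highest with Yoda1.

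RCAN1, the calcineurin inhibitor that NFAT induces and a common readout of calcium entry, was higher with Yoda1 than under compression. It had 342, 336, 351 and 322 CPM in compression libraries 1 to 4, against 473, 461, 538 and 449 CPM in Yoda1 libraries 1 to 4. The vehicle libraries held 246, 237, 245 and 295 CPM, so the 3 groups did not overlap and compression lay between. The direct difference was -0.51 ± 0.11 (SE, adjusted p = 0.00589), and RCAN1 rose against vehicle by 0.40 (adjusted p = 0.0214) under compression and by 0.91 (adjusted p = 6.13e-06) with Yoda1. The direct call held in all 8 fits that left out 1 library. Among 22 calcineurin-NFAT and CREB genes, 4 were higher under compression (PDE4B, PDE4D, CREB5 and NFATC2) and 3 lower (FOS, DUSP1 and RCAN1), with a median of 0.144. PDE4B, which breaks down cyclic AMP, had 70.6, 87.2, 68.3 and 50.5 CPM in compression libraries 1 to 4, against 25.5, 26.8, 28.7 and 35.0 CPM in Yoda1 libraries 1 to 4. Its groups were clearly separate, at 1.25 ± 0.14 (SE, adjusted p = 4.5e-07), and PDE4D, a paralog with the same activity, differed by 0.86 ± 0.17 (SE, adjusted p = 0.00178). NFATC2, an NFAT family transcription factor, differed by 0.47 ± 0.12 (SE, adjusted p = 0.0207), with Yoda1 library 4 above compression library 4, and kept its call only without compression replicate 4 or Yoda1 replicate 2 or 4 (adjusted p up to 0.0922). CREB5, a CREB family factor, differed by 0.52 ± 0.12 (SE, adjusted p = 0.0101) and lost its call without compression replicate 3 or Yoda1 replicate 4 (adjusted p up to 0.0653).

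The ERK feedback list holds phosphatases and adaptors that dampen ERK or other MAP kinase cascades. Of its 15 measured genes, 5 were higher under compression and 1 was lower, with a median of 0.401. Over all genes tested, 1.78% were called higher. SPRY2, an inhibitor of receptor tyrosine kinase signalling, had 51.8, 46.7, 45.3 and 28.0 CPM in compression libraries 1 to 4, against 24.4, 16.8, 20.6 and 19.1 CPM in Yoda1 libraries 1 to 4. The 4 compression libraries lay above the Yoda1 libraries and these above the vehicle libraries (11.2, 12.2, 11.8 and 13.9 CPM). The difference was 1.09 ± 0.16 (SE, adjusted p = 3.1e-05), and SPRY2 rose against vehicle with both stimuli (1.81, adjusted p = 6.34e-10 and 0.72, adjusted p = 0.0299). DUSP10, a phosphatase of stress-activated kinases, had 39.7, 35.7, 37.5 and 25.9 CPM in compression libraries 1 to 4, against 20.2, 16.0, 15.2 and 15.5 CPM in Yoda1 libraries 1 to 4, a difference of 1.05 ± 0.13 (SE, adjusted p = 2.4e-06). DUSP5 and SPRED1 were called at 0.74 ± 0.21 (SE, adjusted p = 0.034) and 0.64 ± 0.18 (SE, adjusted p = 0.034), each losing the call in 6 of the 8 fits (adjusted p up to 0.135 and 0.114): DUSP5 kept it only without compression replicate 4 or Yoda1 replicate 2, and SPRED1 only without compression replicate 3 or Yoda1 replicate 2. DUSP4, which completes the count, differed by 0.53 (adjusted p = 0.0351) and kept its call in 1 of the 8 fits. Of the 5 genes called higher, SPRY2 and DUSP10 alone kept their calls in all 8. DUSP1, a phosphatase of several MAP kinases, went the other way with 22.6, 19.9, 23.4 and 25.5 CPM in compression libraries 1 to 4, against 34.6, 34.3, 29.4 and 35.7 CPM in Yoda1 libraries 1 to 4. All Yoda1 libraries were above all compression libraries, at -0.55 ± 0.14 (SE, adjusted p = 0.017), and the call was lost without compression replicate 2 (adjusted p = 0.0537). The lean of the ERK feedback list to the higher side was not seen after transfection. At 3 h, 2 members were higher and 3 lower in siNTC cells (median -0.463), and 0 higher and 2 lower in siPIEZO1 cells (median -0.209).

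TGF-beta and BMP genes included 5 higher and 2 lower of 36 measured, with a median of -0.026. SMAD3, a signal transducer of TGF-beta, had 35.1, 35.5, 43.1 and 34.4 CPM in compression libraries 1 to 4, against 22.6, 24.3, 16.5 and 22.0 CPM in Yoda1 libraries 1 to 4, a difference of 0.79 ± 0.15 (SE, adjusted p = 0.00121). BMP2, a bone morphogenetic protein, differed by 0.72 ± 0.17 (SE, adjusted p = 0.0113), which was lost without compression replicate 1 or Yoda1 replicate 2 (adjusted p up to 0.0768). SMAD7, the inhibitory SMAD, differed by 0.42 ± 0.09 (SE, adjusted p = 0.00767) and was lost without Yoda1 replicate 4 (adjusted p = 0.0542). The ID genes, targets of BMP signalling that block differentiation factors, moved in opposite directions. ID2 had 480.1, 489.9, 459 and 398 CPM in compression libraries 1 to 4, against 295, 279.9, 306 and 279 CPM in Yoda1 libraries 1 to 4, higher under compression by 0.66 ± 0.11 (SE, adjusted p = 0.000211). ID3 had 231, 229, 240.1 and 212 CPM in compression libraries 1 to 4, against 288, 328, 352 and 382 CPM in Yoda1 libraries 1 to 4, lower under compression at -0.57 ± 0.11 (SE, adjusted p = 0.00134), and vehicle was higher than both at 537, 552, 501 and 428 CPM. ID1 was also lower, at -0.96 ± 0.28 (SE, adjusted p = 0.0422), and kept its call only without Yoda1 replicate 4 (adjusted p up to 0.167).

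SOX9, the factor that specifies chondrocytes, had 224, 225, 210.3 and 230.0 CPM in compression libraries 1 to 4, against 182, 159, 139 and 141 CPM in Yoda1 libraries 1 to 4. All compression libraries lay above all Yoda1 and vehicle libraries, and vehicle libraries 1 to 4 held 143, 146, 176 and 158 CPM. SOX9 thus differed by 0.52 ± 0.10 (SE, adjusted p = 0.00254). COL2A1, the main cartilage collagen, and ACAN, its large proteoglycan, did not pass. COL2A1 had 5624, 5574, 6132 and 4918 CPM in compression libraries 1 to 4, against 6594, 6956, 5008 and 6988 CPM in Yoda1 libraries 1 to 4, with overlapping groups and a difference of -0.20 ± 0.10 (SE, adjusted p = 0.309), and ACAN differed by -0.23 ± 0.12 (SE, adjusted p = 0.309). Of 36 cartilage matrix genes, 2 were higher (SOX9 and VCAN) and 6 lower, with a median of -0.133. COL27A1, a fibrillar collagen of cartilage, had 46.5, 45.6, 57.4 and 56.0 CPM in compression libraries 1 to 4, against 92.1, 91.4, 80.6 and 87.3 CPM in Yoda1 libraries 1 to 4. The groups were well separated, at -0.77 ± 0.10 (SE, adjusted p = 1.65e-06), and the call held in all 8 fits that left out 1 library. COMP, a pentameric matrix protein, had 22433, 19225, 23116 and 13673 CPM in compression libraries 1 to 4, against 28266, 31428, 26423 and 28407 CPM in Yoda1 libraries 1 to 4, a difference of -0.55 ± 0.15 (SE, adjusted p = 0.0328) that kept its call only without compression replicate 1 or 3 or Yoda1 replicate 3, with an adjusted p of 0.173 without compression replicate 4. COL9A1, a collagen on the surface of cartilage fibrils, differed by -0.56 ± 0.14 (SE, adjusted p = 0.0191) and lost its call without compression replicate 4 or Yoda1 replicate 1 (adjusted p up to 0.11). CILP2, a protein of the cartilage intermediate layer, differed by -1.23 ± 0.29 (SE, adjusted p = 0.0112) and lost its call without compression replicate 4 (adjusted p = 0.0619). VCAN, the proteoglycan versican, was called at 0.44 ± 0.12 (SE, adjusted p = 0.0336) with all 8 libraries and in none of the 8 fits with 7 (adjusted p up to 0.119). The summed chondrocyte marker level given above was lower in every compression library than in every Yoda1 library. COMP alone made up most of that sum and of the gap, with 19612 ± 4307 CPM under compression and 28631 ± 2072 CPM with Yoda1 (SD, n = 4 each). SOX9 and HAPLN1, a link protein of proteoglycan aggregates, had positive estimates (0.52 and 0.24, HAPLN1 not called). The part of the summed level in these differences was not tested.

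Among stress genes, HMOX1, the heme-degrading oxygenase, had the lowest adjusted p of all 792 calls. It had 169.9, 203, 208 and 159.5 CPM in compression libraries 1 to 4, against 501, 659, 633 and 539.6 CPM in Yoda1 libraries 1 to 4. Compression libraries were far below both other groups, with vehicle at 542, 610.5, 565 and 425 CPM. The direct difference was -1.66 ± 0.13 (SE, adjusted p = 2.16e-10), and against vehicle HMOX1 fell under compression (-1.53, adjusted p = 3.72e-10) with Yoda1 at 0.12 (adjusted p = 0.736). HMOX1 is a target of the factor NRF2, and of 28 NRF2 and oxidative stress genes 2 were higher and 3 lower (median -0.0414), of which HMOX1 alone held in all 8 fits. TXNRD1, a thioredoxin reductase that NRF2 also induces, was higher under compression by 0.45 ± 0.10 (SE, adjusted p = 0.00992) and lost the call without compression replicate 1 or 2 (adjusted p up to 0.0637).

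CHAC1, a glutathione-degrading enzyme of the integrated stress response, had 15.2, 12.6, 15.4 and 11.4 CPM in compression libraries 1 to 4, against 35.2, 35.5, 33.6 and 37.7 CPM in Yoda1 libraries 1 to 4. The groups were separate by a wide margin and the vehicle libraries held 33.1, 38.2, 38.6 and 32.2 CPM. The difference was -1.38 ± 0.12 (SE, adjusted p = 1.52e-09), with -1.38 (adjusted p = 5.12e-10) for compression against vehicle. Yoda1 against vehicle did not pass (adjusted p = 1), and the Yoda1 and vehicle libraries overlapped. The unfolded protein and integrated stress response list held 2 higher and 3 lower genes of 37 (median 4e-04), of which CHAC1 alone held in all 8 fits. SERPINH1, the collagen chaperone HSP47, had 56.6, 65.4, 63.1 and 53.8 CPM in compression libraries 1 to 4, against 127, 159, 140.5 and 140.3 CPM in Yoda1 libraries 1 to 4. It was lower in all compression libraries, at -1.25 ± 0.25 (SE, adjusted p = 0.00202), and passed in neither comparison with vehicle (-0.55, adjusted p = 0.197 for compression and 0.70, adjusted p = 0.227 for Yoda1).

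Sterol and fatty acid synthesis genes were called in 1 direction only among 32 measured, 0 higher and 6 lower under compression, with a median of -0.219. Over all genes tested, 2.54% were called lower. INSIG1, the membrane protein that holds back sterol synthesis, had 52.3, 54.9, 54.4 and 45.8 CPM in compression libraries 1 to 4, against 109.5, 151, 126 and 97.1 CPM in Yoda1 libraries 1 to 4. Every compression library was below every Yoda1 and vehicle library, and the difference was -1.22 ± 0.19 (SE, adjusted p = 0.000105). MVD and MVK, enzymes of the mevalonate pathway, differed by -1.29 ± 0.26 (SE, adjusted p = 0.00202) and -0.63 ± 0.10 (SE, adjusted p = 8.9e-05), both without overlap and both called in all 8 fits. DHCR7, the last enzyme of cholesterol synthesis, differed by -0.55 ± 0.13 (SE, adjusted p = 0.0158) and lost its call without compression replicate 4 (adjusted p = 0.0998). The remaining called members were FADS2 and FDFT1, at -0.42 and -0.28, called in 3 and 5 of the 8 fits (adjusted p up to 0.104 and 0.0782). HMGCS1, another sterol-regulated gene, did not pass at -0.24 ± 0.09 (SE, adjusted p = 0.13). INSIG1, MVD, MVK and DHCR7 were also lower than vehicle under compression (-0.99, -0.87, -0.64 and -0.50, all called). None of them was called for Yoda1 against vehicle, which does not show them to be equal. The single direction of the list did not hold in siNTC cells at 3 h, where 6 members were higher and 6 lower (median -0.206). In siPIEZO1 cells at 3 h 0 were higher and 1 lower, and in NT cells at 9 h 0 were called.

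**Figure D3:**
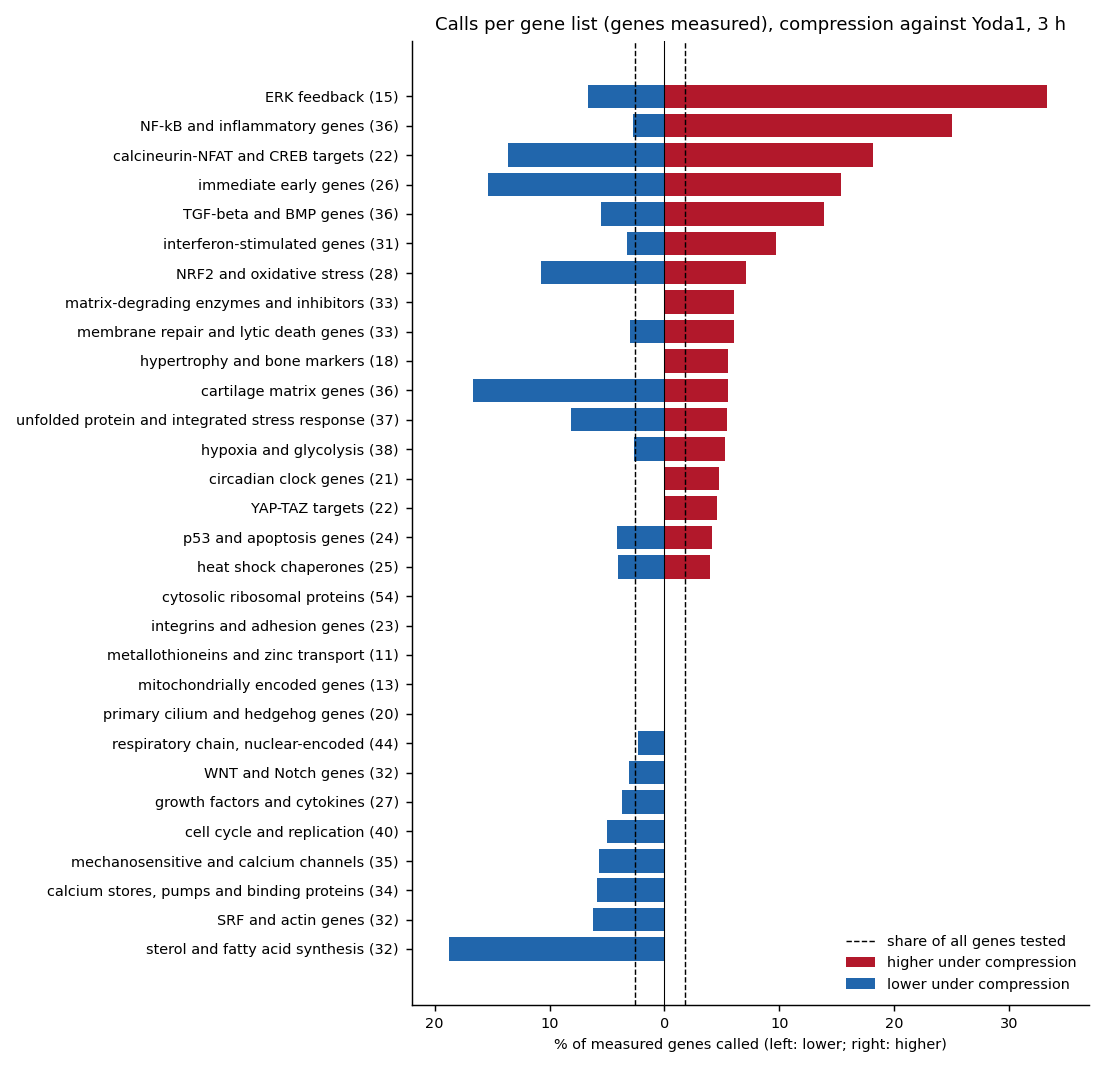
Share of the measured genes of each of 30 gene lists called higher (right, red) or lower (left, blue) under compression than with Yoda1, in % (list size in parentheses); dashed lines mark the shares over all genes tested, 1.78% higher and 2.54% lower. In these NT cells at 3 h, ERK feedback and NF-kB lists reached farthest to the higher side, and the sterol and cartilage matrix lists to the lower side.

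The 12 genes with the largest decreases fell into sets with different patterns across libraries. HMOX1, PHOSPHO1, SLC25A25 and KCNE4 remained called in all 8 fits that left out 1 library. PHOSPHO1, a phosphatase of skeletal mineralisation, had 16.4, 18.5, 28.0 and 19.8 CPM in compression libraries 1 to 4, against 59.4, 65.8, 66.1 and 64.4 CPM in Yoda1 libraries 1 to 4. Its 4 Yoda1 libraries were close together and far above the compression libraries, at -1.63 ± 0.38 (SE, adjusted p = 0.0113). SLC25A25, a calcium-dependent ATP carrier of mitochondria, had 2.77, 2.84, 4.72 and 2.60 CPM in compression libraries 1 to 4, against 6.75, 10.8, 11.4 and 7.88 CPM in Yoda1 libraries 1 to 4, a difference of -1.51 ± 0.29 (SE, adjusted p = 0.00159) with vehicle at 3.88, 4.84, 3.44 and 4.69 CPM. KCNE4, an accessory subunit of potassium channels, had 3.94, 3.78, 3.39 and 4.26 CPM in compression libraries 1 to 4, against 7.88, 12.4, 12.8 and 10.4 CPM in Yoda1 libraries 1 to 4, at -1.50 ± 0.22 (SE, adjusted p = 5.69e-05).

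The other 8 were CCDC85B, GAL3ST1, CRIP2, CD14, HSPB6, DOHH, ADI1 and PPM1G, and each was lost in at least 5 of the 8 fits (adjusted p up to 0.157). CCDC85B kept its call only without Yoda1 replicate 3 or 4, ADI1 without compression replicate 3 or Yoda1 replicate 4, PPM1G and CD14 without compression replicate 2 or 3 or Yoda1 replicate 4, and GAL3ST1, CRIP2, HSPB6 and DOHH without Yoda1 replicate 4. The lack of overlap in these 12, as in the 12 largest increases, is set by how they were chosen. CD14, a co-receptor for bacterial lipopolysaccharide on monocytes, had 8.83, 10.3, 12.2 and 6.26 CPM in compression libraries 1 to 4, against 34.9, 38.1, 35.0 and 12.4 CPM in Yoda1 libraries 1 to 4. Yoda1 library 4 lay near the compression libraries and the other 3 were far above, and the difference was -1.68 ± 0.44 (SE, adjusted p = 0.0224). In vehicle, library 4 was instead the high one, with 8.73, 10.6, 7.50 and 25.3 CPM. HSPB6, a small heat shock protein, had 19.6, 29.9, 28.0 and 17.3 CPM in compression libraries 1 to 4, against 87.3, 92.9, 76.5 and 30.0 CPM in Yoda1 libraries 1 to 4 and 25.0, 30.6, 24.3 and 73.2 CPM in vehicle libraries 1 to 4, a difference of -1.59 ± 0.45 (SE, adjusted p = 0.0341) that repeated this arrangement. CRIP2, a LIM-domain protein, had 12.7, 12.6, 13.5 and 8.22 CPM in compression libraries 1 to 4, against 48.1, 44.8, 47.1 and 17.2 CPM in Yoda1 libraries 1 to 4, with 11.11, 18.6, 11.9 and 33.7 CPM in vehicle, at -1.74 ± 0.49 (SE, adjusted p = 0.034).

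GAL3ST1, which sulfates galactolipids, differed by -2.18 ± 0.64 (SE, adjusted p = 0.0425), and ADI1, an enzyme of methionine salvage, by -1.51 ± 0.43 (SE, adjusted p = 0.0376). PPM1G, a protein phosphatase, differed by -1.48 ± 0.41 (SE, adjusted p = 0.0306). Yoda1 replicate 4 was the lowest Yoda1 library and vehicle replicate 4 the highest vehicle library for 7 of the 12 largest decreases, for 32.4% of the 102 genes at least 2-fold lower and for 11.2% of all genes tested. Annotated ribosomal RNA genes took 0.0855 to 0.134% of counts in the 8 compression and Yoda1 libraries and 0.104% in vehicle library 4, but 0.0488 to 0.0584% in vehicle libraries 1 to 3. The part of these library differences in the decreases was not tested. Without Yoda1 replicate 4 and compression replicate 4 together, an alternative chosen after seeing the data, 137 genes were higher and 72 lower.

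**Figure D4:**
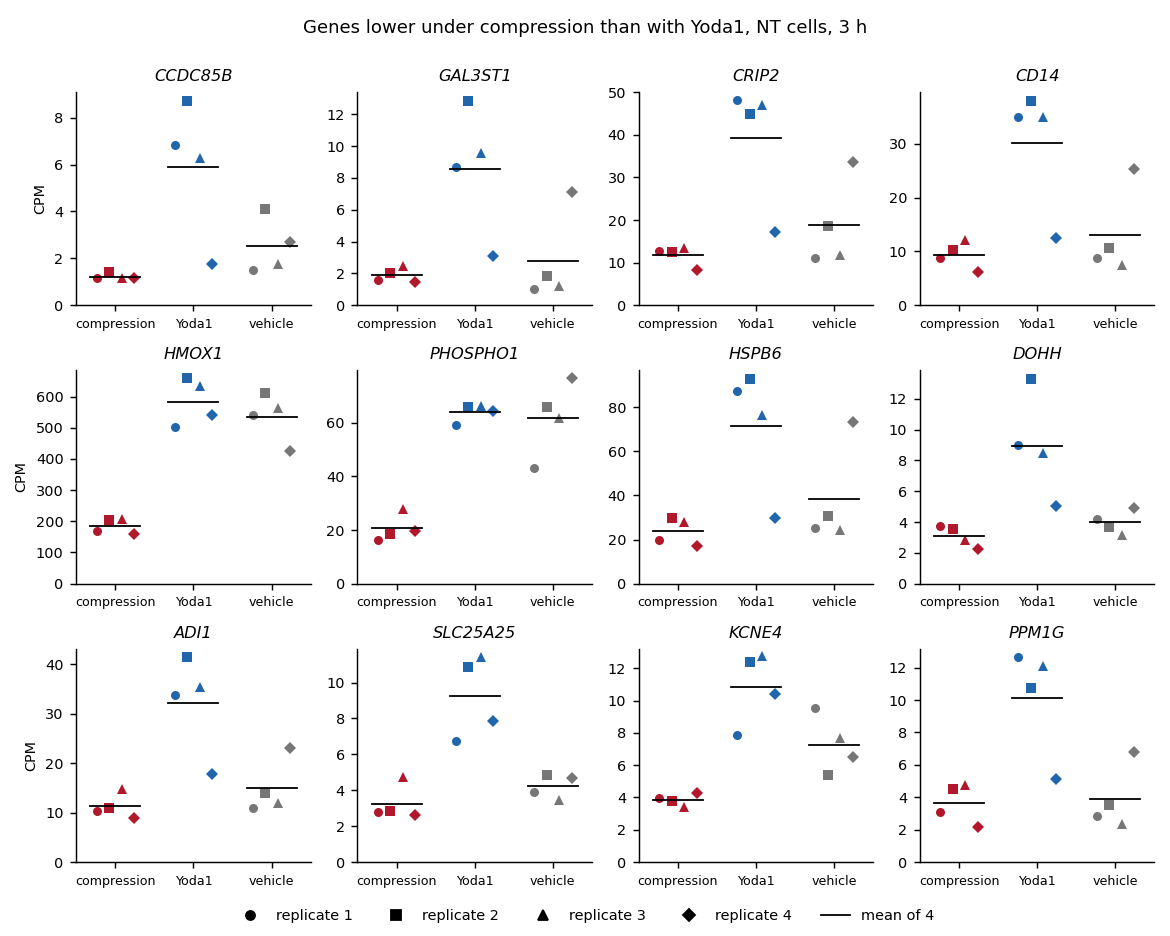
CPM (linear axis from 0) of the 12 genes with the largest negative difference between compression and Yoda1, in NT cells at 3 h; points are libraries, shapes are replicate numbers and bars are means of 4. For CRIP2, CD14 and HSPB6 the Yoda1 library of replicate 4 lies near the compression libraries and the vehicle library of replicate 4 lies above the other vehicle libraries, whereas for HMOX1 and PHOSPHO1 all Yoda1 libraries lie far above all compression libraries.

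PIEZO1, on chromosome 6 at 914480 to 967113 (RefSeq, Sscrofa11.1), had 3.84, 4.71, 5.53 and 3.16 CPM in compression libraries 1 to 4, against 6.61, 5.72, 6.21 and 6.40 CPM in Yoda1 libraries 1 to 4. The 2 groups did not overlap, as was so for 14% of all genes tested, and the difference of -0.53 ± 0.20 (SE, adjusted p = 0.12) did not pass. PIEZO2 had 6.06, 8.68, 6.82 and 7.55 CPM in compression libraries 1 to 4, against 6.71, 8.30, 8.63 and 6.19 CPM in Yoda1 libraries 1 to 4, with overlapping groups and a difference of -0.03 ± 0.18 (SE, adjusted p = 0.95). TRPV4, the osmotically and mechanically sensitive calcium channel, differed by -0.21 ± 0.12 (SE, adjusted p = 0.4). Of 35 mechanosensitive and calcium channel genes, 0 were higher and 2 lower (median -0.247), a share near the 4.32% over all genes tested. KCNK6, a background potassium channel, had 44.3, 43.8, 41.6 and 40.983 CPM in compression libraries 1 to 4, against 66.1, 61.7, 61.7 and 68.5 CPM in Yoda1 libraries 1 to 4. Its groups did not overlap, at -0.60 ± 0.09 (SE, adjusted p = 0.000105). PKD1, the polycystin that pairs with a calcium channel, had low counts and differed by -1.23 ± 0.28 (SE, adjusted p = 0.00824).

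The remaining lists held few calls, beside 4.32% called over all genes tested, and most of their called members depended on single libraries. Integrins and adhesion genes, metallothioneins, primary cilium genes, cytosolic ribosomal proteins and mitochondrially encoded genes had 0 called members of 23, 11, 20, 54 and 13 measured. All 13 mitochondrially encoded genes had positive estimates, with a median of 0.268, as did 48 of the 54 cytosolic ribosomal protein genes, with a median of 0.123. The median over all genes tested was -0.000543. In siNTC cells at 3 h, 12 of the 13 mitochondrially encoded genes were called higher. They took 0.279% of counts in siNTC Yoda1 library 2 and 0.516 to 0.606% in siNTC Yoda1 libraries 1, 3 and 4. In siNTC compression libraries they took 0.680 to 0.793%. The part of siNTC Yoda1 library 2 in the 12 calls was not tested. Actin and SRF genes held 0 higher and 2 lower of 32, neither called in all 8 fits, and YAP-TAZ targets 1 higher, YAP1 itself, and 0 lower of 22. YAP1, the mechanically regulated co-activator, differed by 0.60 ± 0.18 (SE, adjusted p = 0.0414) and kept its call only without compression replicate 3 (adjusted p up to 0.132). Growth factors held 0 higher and 1 lower gene of 27. This was PDGFA, a growth factor of mesenchymal cells, at -1.07 ± 0.28 (SE, adjusted p = 0.0236), lost without compression replicate 2 or 4 or Yoda1 replicate 2 or 3 (adjusted p up to 0.0843).

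Among genes of metabolism and survival, PFKFB4, a regulator of glycolysis, had 119.7, 95.2, 108 and 79.8 CPM in compression libraries 1 to 4, against 61.8, 66.8, 59.2 and 65.5 CPM in Yoda1 libraries 1 to 4. The compression libraries were all above the Yoda1 libraries, at 0.67 ± 0.13 (SE, adjusted p = 0.00134), and the call held in all 8 fits that left out 1 library. PFKL, a glycolytic phosphofructokinase, went the other way at -1.08 ± 0.29 (SE, adjusted p = 0.0266), but kept its call only without compression replicate 3 or Yoda1 replicate 4 (adjusted p up to 0.133). Of 38 hypoxia and glycolysis genes, 2 were higher and 1 lower (median 0.096), beside 4.32% called over all genes tested. The other gene called higher, BNIP3L, was called in none of the 8 fits (adjusted p up to 0.273). BTG1, an antiproliferative gene, had 29.1, 23.8, 25.1 and 28.4 CPM in compression libraries 1 to 4, against 18.1, 13.3, 14.6 and 15.6 CPM in Yoda1 libraries 1 to 4. It was higher in every compression library, at 0.79 ± 0.13 (SE, adjusted p = 0.000155), and was 1 higher gene beside 1 lower gene, GADD45G, among 24 p53 and apoptosis genes (median 0.111). GADD45G, a growth arrest gene, kept its call only without Yoda1 replicate 4 (adjusted p up to 0.124).

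DNAJB6, a co-chaperone, had 41.5, 37.5, 39.2 and 39.5 CPM in compression libraries 1 to 4, against 26.2, 23.9, 24.5 and 30.3 CPM in Yoda1 libraries 1 to 4, a difference of 0.59 ± 0.11 (SE, adjusted p = 0.00159) without overlap that held in all 8 fits. With SERPINH1 it gave 1 higher and 1 lower of 25 heat shock chaperones (median 0.0682), beside 4.32% called over all genes tested. CAV1, the coat protein of caveolae, had 409, 375, 394 and 395 CPM in compression libraries 1 to 4, against 316, 303, 316 and 305 CPM in Yoda1 libraries 1 to 4, at 0.34 ± 0.08 (SE, adjusted p = 0.0126), and held in all 8 fits. Of 33 membrane repair and lytic death genes, CAV1 and ANXA1 were higher and CAPN1, a calpain, was lower (median -0.00957). ANXA1 lost its call without compression replicate 2 or 4 or Yoda1 replicate 1 or 2 (adjusted p up to 0.0701), and CAPN1 kept its call only without compression replicate 3 or Yoda1 replicate 2 (adjusted p up to 0.122). CALM3, which encodes calmodulin, had 72.04, 74.0, 72.2 and 64.2 CPM in compression libraries 1 to 4, against 97.7, 101.3, 100.9 and 102 CPM in Yoda1 libraries 1 to 4, at -0.51 ± 0.10 (SE, adjusted p = 0.00202), and of 34 calcium store, pump and binding genes 0 were higher and 2 lower (median 0.0653). The other of these 2, CAMK2G, kept its call only without compression replicate 4 or Yoda1 replicate 2 (adjusted p up to 0.153). CCND1, the cyclin of the G1 phase, and MCM5, a replication helicase subunit, were the 2 of 40 cell cycle genes called, both lower. CCND1 differed by -0.66 ± 0.18 (SE, adjusted p = 0.0307), lost without compression replicate 4 or Yoda1 replicate 1, 2 or 4 (adjusted p up to 0.151), and MCM5 by -0.54 ± 0.15 (SE, adjusted p = 0.029), lost without compression replicate 4 or Yoda1 replicate 2, 3 or 4 (adjusted p up to 0.164).

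The same comparison in siNTC cells at 3 h used 8 other libraries of the same model. There, 3051 genes were called, 1485 higher (8.1% of all tested) and 1566 lower (8.54%) under compression, together 16.6%, with 1593 called without siNTC compression replicate 4 and 1313 without siNTC Yoda1 replicate 2. Of the 792 genes called in NT cells, 740 had the same direction in siNTC cells (93.4%, against 66.7% of all genes tested), and 494 were called in that direction, which is 62.4% of the NT calls and 16.2% of the siNTC calls. HMOX1 was -1.09 (adjusted p = 2.24e-06), CHAC1 -2.12 (adjusted p = 7.09e-15) and EGR1 -2.09 (adjusted p = 6.84e-09) in siNTC cells. CCL2 and PTGS2 were higher under compression there as well (0.95, adjusted p = 0.00879 and 0.97, adjusted p = 0.000453), whereas AMCF-II and CXCL8 did not pass (0.86, adjusted p = 0.0977 and 0.93, adjusted p = 0.0705). Of the 24 largest genes, 23 kept their direction and 20 were called. The difference between siNTC and NT cells was itself called for 7 genes (0.0382%; 4 positive, 0.0218%, and 3 negative, 0.0164%), among them TCIM, NR4A2 and COL27A1. NR4A2 had 73.4, 67.3, 57.8 and 46.9 CPM under compression and 92.3, 131, 106 and 47.3 CPM with Yoda1 in siNTC libraries 1 to 4. The direct difference was -0.62 (adjusted p = 0.0277) in siNTC cells, against 0.85 in NT cells, and the 2 differed by -1.46 ± 0.28 (SE, adjusted p = 0.024). TCIM was 0.31 (adjusted p = 0.425) in siNTC cells, against 2.06 in NT cells, and COL27A1 was -0.08 (adjusted p = 0.65), against -0.77 in NT cells. This count of 7 depended on single libraries. It lay between 0, without NT compression replicate 2 or siNTC compression replicate 2, and 16, without NT compression replicate 4, and moved past 1.5-fold in 13 of the 16 fits that left out 1 library.

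The siPIEZO1 cells received 3 siRNAs together, whose sequences are shown because they define this group. They are given 5′ to 3′ as in the sample protocol, with no base singled out in capitals.
siPIEZO1a: cagcgagaucucgcacuccauc
siPIEZO1b: uacgaccugcugcagcuccug
siPIEZO1c: acccgcuggccaugcaguucuu
The targeted transcript itself had 3.64, 6.19, 4.64 and 4.50 CPM in siPIEZO1 compression libraries 1 to 4, against 7.18, 5.14, 6.68 and 4.86 CPM in the siNTC ones. With Yoda1 it had 4.12, 5.70, 4.24 and 4.92 CPM in siPIEZO1 libraries, against 5.71, 8.07, 8.10 and 9.28 CPM in siNTC libraries. The siPIEZO1 and siNTC libraries thus overlapped under compression and were just separate with Yoda1, and PIEZO1 mRNA was present in all of them.

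In siPIEZO1 cells, 126 genes differed between compression and Yoda1, 20 higher (0.109%) and 106 lower (0.578%), together 0.687% of all tested. The count was 54, 67 and 44 without siPIEZO1 compression replicates 1, 3 and 4 and 82, 35 and 72 without siPIEZO1 Yoda1 replicates 2 to 4. Of the 792 NT calls, 641 had the same direction (80.9%, against 58.8% of all genes tested) and 21 were called in that direction, which is 2.65% of the NT calls and 16.7% of the siPIEZO1 calls. HCAR2 (0.83, adjusted p = 0.00754), HMOX1 (-0.65, adjusted p = 0.0083), CHAC1 (-1.58, adjusted p = 4.35e-11), EGR1 (-1.81, adjusted p = 2.8e-07) and RCAN1 (-0.87, adjusted p = 1.6e-05) were among the called ones. The difference between siPIEZO1 and siNTC cells was called for 1 gene, PTGS2 (0.00546% of all tested, with 2711 genes at an unadjusted p under 0.05 and 334 called by DESeq2). PTGS2 had 183, 183, 262 and 232 CPM under compression and 236, 334, 323 and 338 CPM with Yoda1 in siPIEZO1 libraries. In siNTC libraries it had 307, 273, 238 and 234 CPM under compression and 135, 114, 170.4 and 117 CPM with Yoda1. Compression was thus the higher condition in siNTC cells, and in siPIEZO1 cells the groups differed the other way without passing. The difference was -0.52 (adjusted p = 0.244) in siPIEZO1 cells, against 0.97 (adjusted p = 0.000453) in siNTC cells, and the 2 differed by -1.49 ± 0.25 (SE, adjusted p = 0.0184). No gene was called without siNTC compression or Yoda1 replicate 2, without siPIEZO1 compression replicate 1 or 2, or without siPIEZO1 Yoda1 replicate 2, 3 or 4, whereas 31 to 110 were called without siNTC compression replicate 3, siNTC Yoda1 replicate 1, 3 or 4 or siPIEZO1 Yoda1 replicate 1, and 2 without siNTC compression replicate 1.

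In NT cells at 9 h, 146 of 18611 genes differed (80 higher, 0.43%, and 66 lower, 0.355%, together 0.784%), and 6 were called when the fit held the 8 libraries alone. The count at 9 h was 33 and 51 without compression replicates 2 and 3 and 56, 79, 71 and 47 without Yoda1 replicates 1 to 4. Of 789 genes called at 3 h and tested at 9 h, 194 had the same direction (24.6%, against 40.2% of all genes tested), and of 33 called at both harvests 6 had the same direction and the others the opposite one. The 6 are 0.76% of the 3 h calls and 4.11% of the 9 h calls. The difference of 9 h from 3 h was itself called for 1017 of 20202 genes (5.03%; 545 positive, 2.7%, and 472 negative, 2.34%) and for 22 of the 24 largest genes, with 660 called without compression replicate 2 at 9 h and 647 without compression replicate 4 at 3 h. CXCL8 was 0.23 (adjusted p = 0.833) at 9 h, against 2.02 at 3 h, and CCL20 was -0.43 (adjusted p = 0.717), against 1.85 at 3 h. PTGS2 had 38.998, 87.1, 82.98 and 66.5 CPM under compression and 46.1, 62.3, 58.4 and 61.6 CPM with Yoda1 at 9 h, and the groups overlapped. Its difference was 0.27 (adjusted p = 0.65) at 9 h, against 1.56 at 3 h. AMCF-II was the exception among the 24, called in the same direction at 9 h at 2.17 (adjusted p = 0.0422). CCDC85B and GAL3ST1, lower under compression at 3 h, were higher at 9 h (2.15, adjusted p = 0.017 and 2.47, adjusted p = 0.0116).

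**Figure D5:**
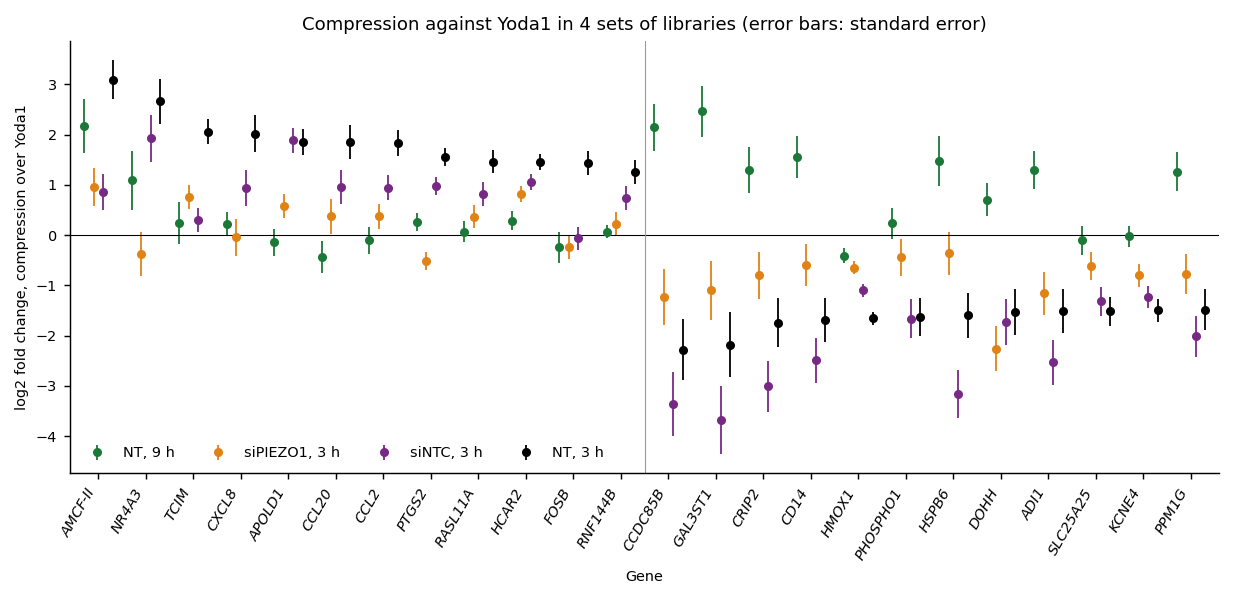
Log2 fold change of compression over Yoda1 with its standard error for the 12 largest higher (left of the line) and 12 largest lower genes, in NT cells at 9 h, siPIEZO1 and siNTC cells at 3 h, and the NT cells at 3 h in which the genes were chosen. In siNTC cells 23 of the 24 genes had the sign of NT cells at 3 h, in siPIEZO1 cells 20, and at 9 h 11.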

How the data were processed

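The values analysed are raw counts per gene, deposited by the authors in a single table with no normalisation. Per the submitters' processing notes, Trim Galore, STAR and HTSeq made them against the Sscrofa11.1 build, with no tool version. Whether HTSeq counted by strand is not stated in the sources used here, so reads of a gene and an overlapping or antisense partner cannot be told apart. Per the labels' protocols, the libraries came from 10 ng of RNA with an integrity number above 8, amplified with a low-input cDNA kit. Replicates of a group differed by more than sampling noise (chi-square per degree of freedom at least 12.5), so none was counted as a copy. The table held 32388 lines for 31907 identifiers, and 481 repeated lines with identical counts were removed.

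Counts were tested with edgeR 4.0.16 (R 4.3.3), which fitted quasi-likelihood models with 1 term per group to all 36 libraries of the PIEZO1 experiment at 1 harvest (72 for 9 h against 3 h) after TMM scaling and filterByExpr with a minimum count of 10. P-values were adjusted by Benjamini and Hochberg over all genes tested, with a threshold of 0.05, and an SE is the log2 fold change divided by the square root of F. On simulated data with 17818 genes, the comparison of compression with Yoda1 recovered 97 of 100 genes changed 2-fold and 60 of 100 changed 1.5-fold, with 6 false among 163 calls. Only genes at 5 CPM or more were changed, and the simulated counts were independent, with no shift shared by the genes of a library. The real libraries held such shifts, so these rates cannot be carried over to the calls reported here. Named genes are the 12 largest per direction with a symbol, called, at 5 CPM or more and without overlap between groups, up to 4 called members per direction of each of 30 lists, and PIEZO1, PIEZO2, TRPV4, COL2A1, ACAN and SOX9. NFKBIA, NFKBIZ, TNFAIP3, NOS2, BIRC3, DUSP4, FADS2, FDFT1 and HMGCS1 were named after their values were seen. The comparison and lists were chosen with earlier results of these data known, and groups came from the titles. Gene positions were read from the RefSeq gene table of that build. Alternatives were DESeq2 1.42.0, RLE size factors, other count filters, a replicate block, fits on the compared libraries alone and fits without single libraries.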

Additional observations from a re-analysis of the deposited data

Results flagged for a closer look

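In 14 of 204 groups of 4 libraries tested over the named genes, 1 library lay far from the other 3 (10 under compression and 4 with Yoda1), where chance flags about 1 in 20 groups. Compression replicate 3 was the high one for SLC25A25 (4.72 CPM), ZFP36 (8.81 CPM) and SMAD3 (43.1 CPM) and stood alone for ANXA1 (85.9 CPM). Compression replicate 4 stood alone for DUSP5 (8.65 CPM), ATF6 (115.2 CPM), BNIP3L (297.8 CPM) and MCM5 (22.8 CPM), and compression replicate 2 for CCDC85B (1.40 CPM) and IFIT5 (142.9 CPM). With Yoda1, replicate 4 was the low one for CRIP2 (17.2 CPM) and CD14 (12.4 CPM), replicate 1 stood alone for DUSP10 (20.2 CPM) and replicate 2 for PSAT1 (680.4 CPM).

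The log2 difference between compression and Yoda1 was itself different between cells for 4 named genes. In siNTC minus NT cells the differences were 0.70 for COL27A1, -1.46 for NR4A2 and -1.75 for TCIM, and in siPIEZO1 minus siNTC cells -1.49 for PTGS2 (edgeR quasi-likelihood interaction test, adjusted p under 0.05 each).

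Between harvests, the difference was itself called for 22 of the 24 largest genes and for SOX9. At 9 h minus 3 h it was negative for CCL20 (-2.29), APOLD1 (-2.0), CCL2 (-1.95), TCIM (-1.81), CXCL8 (-1.8), FOSB (-1.68), RASL11A (-1.4), PTGS2 (-1.29), RNF144B (-1.2), HCAR2 (-1.17) and SOX9 (-0.76). It was positive for genes lower under compression at 3 h, namely GAL3ST1 (4.64), CCDC85B (4.42), CD14 (3.23), HSPB6 (3.05), CRIP2 (3.03), ADI1 (2.8), PPM1G (2.73), DOHH (2.23), PHOSPHO1 (1.85), KCNE4 (1.46), SLC25A25 (1.4) and HMOX1 (1.24). For CD14, HSPB6 and CRIP2, Yoda1 replicate 4 at 3 h was close to the compression libraries, and the part of that library in these values was not tested.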

How the results depend on the processing

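Direction held for the 97 called among the 102 named genes under every alternative to the compression against Yoda1 comparison, whereas PIEZO2, not called in any, changed sign in some. No call among them was lost under DESeq2, a minimum count of 50, a fit on the 8 libraries alone or the fit with a replicate block, while RLE scaling lost 1, no low-count filter 6, the fits without 1 library 20 to 39 each, and the fit without compression and Yoda1 replicates 4 together 48. The 792 calls became 1287 with DESeq2, 1625 with the 8 libraries alone, 1276 without siPIEZO1 vehicle replicate 1 (added after seeing the data, with all 792 kept) and 209 without both replicates 4, and 295 to 616 without 1 library. With the other settings they were 798 under RLE scaling, 694 without a count filter and 1021 at a minimum count of 50.

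Against vehicle, leaving out 1 library gave 526 to 1583 calls for compression (1149 with all libraries) and 13 to 394 for Yoda1 (75 with all libraries), the Yoda1 extremes without vehicle replicates 1 and 4; Yoda1 gave 230 with DESeq2 and 210 with the compared libraries alone. In siNTC cells the 3051 calls became 1641 with the compared libraries alone and 1313 to 3280 without 1 library. In siPIEZO1 cells the 126 calls became 251 with DESeq2, 268 with the compared libraries alone and 35 to 165 without 1 library. At 9 h the 146 calls became 286 with DESeq2, 6 with the compared libraries alone and 33 to 176 without 1 library. The difference of siNTC from NT cells, 7 genes, became 41 with DESeq2, 0 with the compared libraries alone and 0 to 16 without 1 library. The difference of siPIEZO1 from siNTC cells, 1 gene, became 334 with DESeq2, 13 without a count filter, 84 at a minimum count of 50, 14 with the compared libraries alone and 0 to 110 without 1 library. The difference of 9 h from 3 h, 1017 genes, became 1573 with DESeq2 and 647 to 1188 without 1 library. The cause of these shifts was not tested.

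The replicate numbers share no stated animal or batch, and same-numbered compression and Yoda1 libraries correlated at -0.0314 to 0.0216 in their deviations from the group means, so the numbers were not taken as pairs. Of 4 compression libraries, 1 matched its own number best. With a replicate block the calls were 917 for compression against Yoda1, 1215 and 91 for compression and Yoda1 against vehicle, 3121 in siNTC cells, 185 in siPIEZO1 cells and 282 at 9 h, and 6, 1 and 1234 for the 3 differences in the order given above. With 4 libraries a group and a common biological coefficient of variation of 0.282, the test could miss true changes. How small a change it could call in these data was not tested. A gene that did not pass is therefore not shown to be equal.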

Other observations

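Several further genes, chosen after their values were seen, were called in all 8 fits that left out 1 library. HIVEP2, a zinc-finger DNA-binding protein, had 17.7, 17.5, 14.2 and 14.6 CPM in compression libraries 1 to 4, against 6.22, 9.27, 7.24 and 4.50 CPM in Yoda1 libraries 1 to 4. Its groups were well apart, at 1.23 ± 0.19 (SE, adjusted p = 9.2e-05). ARID5B, another DNA-binding regulator, had 14.6, 14.1, 12.6 and 12.1 CPM in compression libraries 1 to 4, against 7.57, 5.89, 5.72 and 6.23 CPM in Yoda1 libraries 1 to 4, at 1.07 ± 0.18 (SE, adjusted p = 0.000214), and KLF9, a steroid-responsive zinc-finger factor, had 6.41, 6.78, 6.57 and 7.36 CPM in compression libraries 1 to 4, against 2.05, 4.18, 3.18 and 2.53 CPM in Yoda1 libraries 1 to 4, at 1.18 ± 0.22 (SE, adjusted p = 0.00109). NR3C1, the glucocorticoid receptor, differed by 0.54 ± 0.09 (SE, adjusted p = 0.000261), and ELL2, a transcription elongation factor, by 0.86 ± 0.12 (SE, adjusted p = 2.36e-05). DUSP16, a phosphatase of stress-activated kinases that was on none of the lists, had 26.0, 25.5, 22.5 and 18.9 CPM in compression libraries 1 to 4, against 10.5, 9.40, 8.56 and 10.3 CPM in Yoda1 libraries 1 to 4. All compression libraries were above all Yoda1 libraries, at 1.26 ± 0.16 (SE, adjusted p = 4.48e-06), with 1.30 (adjusted p = 8.22e-07) for compression against vehicle and 0.04 (adjusted p = 0.954) for Yoda1 against vehicle. TNFRSF11B, the decoy receptor osteoprotegerin, averaged 292 ± 41.001 CPM under compression and 181 ± 23.9 CPM with Yoda1 (SD, n = 4 each), at 0.69 ± 0.11 (SE, adjusted p = 0.000146).

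Gene families were also grouped by symbol, chosen after their values were seen. Over all genes tested, 1.78% were called higher and 2.54% lower. Mitochondrial carriers of the SLC25A family were called lower in 8 and higher in 0 of 42 measured, with a family median of -0.0449. SLC25A42, a coenzyme A carrier, had 3.14, 2.53, 4.11 and 3.19 CPM in compression libraries 1 to 4, against 8.44, 7.39, 7.76 and 6.74 CPM in Yoda1 libraries 1 to 4. SLC25A22, a glutamate carrier, had 2.94, 2.51, 3.97 and 2.02 CPM in compression libraries 1 to 4, against 5.94, 6.52, 6.67 and 6.64 CPM in Yoda1 libraries 1 to 4. Every compression library of both genes lay below every Yoda1 library, with log2 differences of -1.23 and -1.17. Potassium channel genes were called lower in 3 and higher in 0 of 51 (KCNE4, KCNK5 and KCNK6). This share was near the 4.32% called over all genes tested. KCNK5 had 6.71, 8.94, 11.4 and 12.5 CPM in compression libraries 1 to 4, against 19.0, 18.0, 16.4 and 20.4 CPM in Yoda1 libraries 1 to 4, at -0.90 ± 0.15 (SE, adjusted p = 0.000211). Collagen genes were called lower in 4 and higher in 0 of 40, with a median of -0.234. Other families had more members called higher than lower. KLF factors were called higher in 3 and lower in 0 of 15, with a median of 0.198. CXCL and CCL chemokines were called higher in 4 and lower in 0 of 15, with a median of 0.652. DUSP phosphatases were called higher in 4 and lower in 1 of 19. As a family they did not lean higher, with a median of -0.00225 and 9 of 19 estimates positive. SESN2, a stress-induced regulator of growth signalling, was -0.29 ± 0.18 (SE, adjusted p = 0.418) in NT cells and -1.69 (adjusted p = 1.72e-07) in siNTC cells, and the difference between the cells was -1.40 ± 0.25 (SE, adjusted p = 0.0215).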
